A study of Mus musculus with 10 samples.

Results

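The genes described here are 10 genes of the MHC class I pathway: the class I heavy chains H2-K1 and H2-D1, their light chain B2m, the peptide transporter subunits Tap1 and Tap2, the loading chaperone Tapbp (tapasin), the immunoproteasome subunits Psmb8, Psmb9 and Psmb10, and the class I transactivator Nlrc5. They were taken by symbol from the deposited gene tables and are 10 of the 19456 genes listed in at least 1 library. All 10 were listed in all 10 libraries and passed the low-count filter, which left 14072 genes for testing. RNA came from intestinal tissue of mice labelled C57BL/6 and was sequenced as poly-A RNA. The 4 groups were untreated wild type (WT, 3 libraries), untreated transgenic mice that overexpress ITGB6 (TG, 3 libraries), and WT and TG mice given 2.5% dextran sulfate sodium (DSS) by mouth (2 libraries each). DSS is a sulfated polysaccharide that injures the gut lining and served here as a model of intestinal fibrosis, and ITGB6 is an epithelial integrin subunit. The gut segment, age, sex, duration of DSS, number of founder lines and promoter of the transgene are not given in the sources used here. The labels do not say that libraries of a group came from separate animals, so p-values measure only the spread between these samples, which may be technical.

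MHC class I molecules carry short peptides from proteins inside a cell to its surface, where CD8+ T cells inspect them. Proteasomes cut the peptides, TAP pumps them into the endoplasmic reticulum, and tapasin holds the empty heavy chain with its light chain at TAP until a peptide fits. Interferons raise most of these genes in gut epithelium and in leukocytes alike: Psmb8, Psmb9 and Psmb10 then replace the constitutive subunits Psmb5, Psmb6 and Psmb7 in newly built proteasomes, and NLRC5 acts on class I promoters through the RFX and X2 elements.

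Of the 10 genes, 7 lie on chromosome 17, in or beside the MHC. In the RefSeq annotation of GRCm38.p6 these are Tapbp (gene ID 21356, chr17:33919478-33929290), H2-K1 (14972, chr17:33996012-34000619), Psmb9 (16912, chr17:34182030-34187330), Tap1 (21354, chr17:34187556-34197225), Psmb8 (16913, chr17:34198195-34201454), Tap2 (21355, chr17:34204479-34216321) and H2-D1 (14964, chr17:35263094-35267497). Psmb10 (19171, chr8:105935728-105938392) and Nlrc5 (434341, chr8:94434335-94527272) lie on chromosome 8, and B2m (12010, chr2:122147687-122153082) on chromosome 2. Counts were deposited per gene, with no separate value for exons, introns or UTRs.

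Upstream sequence is shown for the members whose RefSeq promoter windows (250 bases before to 50 after a start, GRCm38.p6) hold an element of the kind through which class I genes are known to respond to NF-kappa B, interferon or the RFX complex, and for the stretch that Tap1 and Psmb9 share. A window was found for 8 of the 10 genes, with no entry for Tap2 and Nlrc5. The H2-K1 stretch below precedes a start at 34000347, which lies inside the annotated gene span ending at 34000619. That stretch is therefore itself within the annotated span of H2-K1. The windows were searched on both strands for a palindromic kappa B motif (its letters are the first run of capitals below), TTTCACTTC (the core of the class I interferon element), TGACGC (an X2 core), an interferon-stimulated response element written as GAAA, any 2 bases and GAAA again, TTCNNNGAA (a gamma-activated sequence) and CCAAT, and none of the matches in capitals overlaps another. The heavy chain stretches below (H2-K1, chr17:34000353-34000488, minus strand, 141 to 6 bases before a start, and H2-D1, chr17:35262893-35263028, plus strand, 201 to 66 bases before) carry the first 3 of these in capitals, in that order from 5′ to 3′, and a CCAAT match on the other strand near the end, left in lower case.
H2-K1: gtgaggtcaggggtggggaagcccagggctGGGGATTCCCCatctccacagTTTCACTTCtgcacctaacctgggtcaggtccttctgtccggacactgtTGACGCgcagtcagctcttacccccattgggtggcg
H2-D1: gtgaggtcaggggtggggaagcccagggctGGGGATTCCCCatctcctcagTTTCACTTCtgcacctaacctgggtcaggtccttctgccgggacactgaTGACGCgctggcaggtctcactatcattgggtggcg
The paired stretches had the same base at 125 of 136 positions (91.9%), and the distances between the elements were identical: 21 bases from the kappa B palindrome to the interferon core and 49 from there to the X2 core, first base to first base. The kappa B palindrome was found in 10 of 32851 windows (0.0304%), which belong to 9 genes, and TTTCACTTC in 166 (0.505%). Both occurred together in 4 windows of 3 genes: H2-K1, which has a pair of windows, H2-D1 and the nonclassical class I gene H2-Q6. TGACGC was found in 7.40% of windows. The B2m stretch (chr2:122147518-122147587, plus strand) holds the interferon-stimulated response element and the Psmb8 stretch (chr17:34198068-34198136, plus strand) holds TTCNNNGAA, each in capitals, and each was the only match to its motif among the members.
B2m: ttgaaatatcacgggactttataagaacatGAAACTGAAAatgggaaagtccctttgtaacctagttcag
Psmb8: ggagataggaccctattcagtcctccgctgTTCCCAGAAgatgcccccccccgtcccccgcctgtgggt
The GAAA repeat was found in 3.44% and TTCNNNGAA in 8.30% of all windows. Tap1 and Psmb9 are transcribed away from each other, and the 225 bases between their starts (chr17:34187331-34187555, printed on the plus strand, with Psmb9 to the left and Tap1 to the right) held only a CCAAT match among the motifs searched, in capitals.
Tap1-Psmb9: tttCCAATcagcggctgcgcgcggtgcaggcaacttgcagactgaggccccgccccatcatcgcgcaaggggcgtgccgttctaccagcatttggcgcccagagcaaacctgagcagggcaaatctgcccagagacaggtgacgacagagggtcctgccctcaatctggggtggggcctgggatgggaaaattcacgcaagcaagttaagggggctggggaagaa
CCAAT was found in 37.4% of all windows and in those of 6 of the 8 members with a window. A match is a description of letters and not a measured binding site.

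The libraries held 15393859 to 18284704 expected counts over 16391 to 16949 listed genes. The deposited human ITGB6 entry read 0.117 to 1.13 CPM (counts scaled to library size, with TMM factors) in the 5 WT libraries and 2201 to 3913 CPM in the 5 TG libraries. Xist stood between 0 and 0.417 CPM untreated (6 libraries) and between 307 and 739 CPM after DSS (4 libraries), while Kdm5d stood between 26.6 and 44.2 CPM untreated and at 0 after DSS, so that DSS and sex cannot be told apart in any comparison of DSS with untreated tissue below. Epithelial markers dominated, with a summed level of 14309 to 20165 CPM over 8 of 8 markers, against 6.43 to 9.72 CPM for 5 smooth muscle markers and 2.86 to 9.86 CPM for 6 endothelial markers. The 6 pan-leukocyte markers summed to 204, 387 and 198 CPM in untreated WT 1 to 3 and to 64.8, 169 and 242 CPM in untreated TG 1 to 3. After DSS they summed to 90.4 and 72.8 CPM in WT and to 78.6 and 74.1 CPM in TG. Untreated WT 2 was therefore the highest and untreated TG 1 the lowest of all 10 libraries in these pan-leukocyte markers. In T cell markers untreated TG 1 (79.2 CPM) was not the lowest, with WT DSS 2 (79.0) and TG DSS 1 (76.7) below it. In bulk tissue, fewer cells of a type and less RNA per cell cannot be told apart.

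Per unit of length, the molecules at the cell surface were the most abundant members. In untreated WT, H2-K1 stood at 592 ± 141 FPKM (fragments per kilobase scaled to library size, deposited values, mean ± SD, n = 3), H2-D1 at 580 ± 125 and B2m at 569 ± 180, which differed by less than their spread. Psmb10 followed at 136 ± 20.1 FPKM. Tapbp (73.4 ± 7.13), Psmb8 (59.7 ± 25.5) and Psmb9 (48.9 ± 21.95) came next with overlapping spreads, and then Tap2 (26.7 ± 6.12) and Tap1 (26.4 ± 12.1), again within their spread of each other. Nlrc5 was the lowest at 3.20 ± 1.81 FPKM. In DSS-treated WT the order of the middle changed: Psmb8 averaged 175 FPKM and Psmb9 117, against 203 for Psmb10 and 112 for Tapbp, and Tap1 averaged 73.2 against 40.5 for Tap2.

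With DSS, most class I and immunoproteasome transcripts rose in WT intestine. Of the 10 genes, 7 rose (edgeR quasi-likelihood test, Benjamini-Hochberg adjusted p under 0.05 over all genes), where 19.8% of all 14072 genes passed, 10.2% higher and 9.62% lower. The largest rises were in Psmb8 (3.07-fold), Tap1 (2.91-fold), Psmb9 (2.51-fold) and B2m (1.95-fold), and the members' median log2 fold change was 0.68 against 0.00 over all genes. In TG intestine the median was 0.53 against 0.01, and 1 gene, Psmb8, rose (2.38-fold), where 5.48% of all genes passed, 3.33% higher and 2.15% lower. The libraries of the compared groups did not overlap for 8 members in WT, all higher with DSS, where 28.4% of all genes were higher and 29.1% lower without overlap. In TG 8 members were higher without overlap and 1, Nlrc5, was lower, beside 19.1% and 16% of all genes. The calls in WT changed with single libraries, as did those over all genes, of which 1434 were higher in the full fit. Without untreated WT 1 or untreated WT 3 the count was 4, beside 701 of 14042 and 713 of 14028 genes higher. It was 9 without untreated TG 1, beside 2131 of 14054, and 10 without untreated WT 2, beside 734 of 14011. The members' median log2 fold change was 0.54 without DSS-treated WT 1 and 0.94 without DSS-treated WT 2. In TG 468 of all genes were higher in the full fit. The members' count there was 0 without untreated TG 2 or untreated TG 3, beside 304 and 264 genes higher. It was 3 without untreated WT 2 or untreated TG 1, beside 394 and 774, and 5 without both of these, beside 668. The members' median in TG was 0.65 without TG DSS 1 and 0.41 without TG DSS 2. With total-count scaling the split of all genes in WT moved from 1434 higher and 1354 lower to 1146 and 1700, while 7 members still rose.

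**Figure D1:**
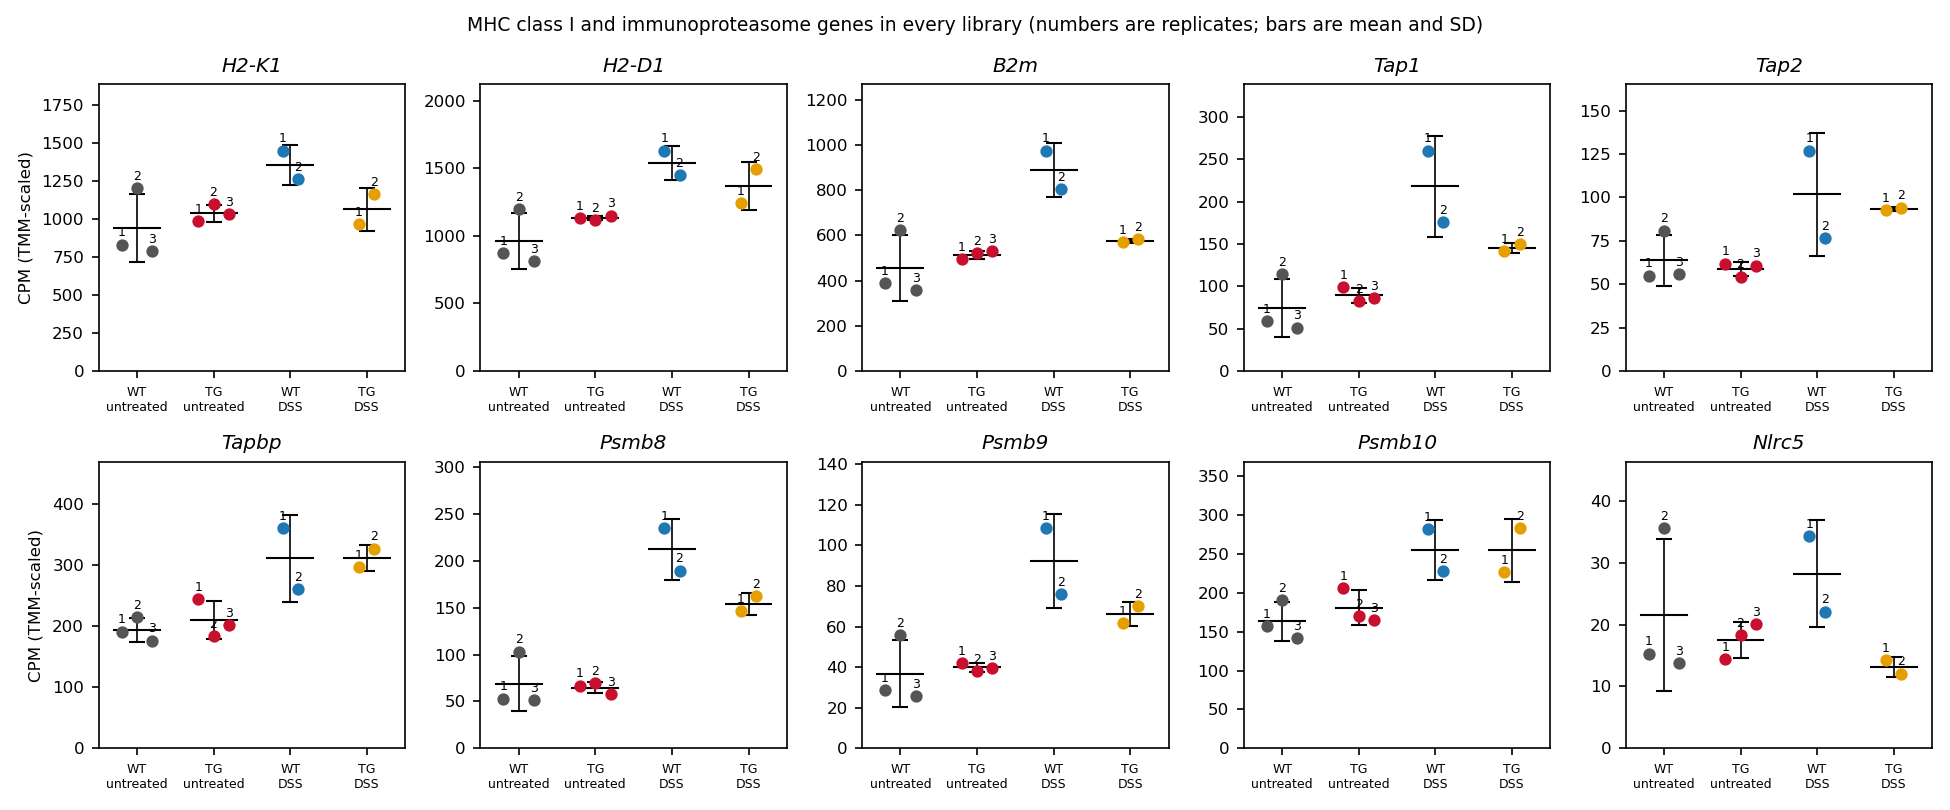
Level of each of the 10 genes in each of the 10 libraries, in CPM on an axis from 0, 1 panel per gene, with numbered points for libraries and bars for the mean and SD of each group. For Psmb8, Tap1 and Psmb9 the libraries of DSS-treated mice lie above all untreated libraries of the same genotype, and untreated WT 2 is the highest untreated WT library in every panel.

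The heavy chains present the peptide. H2-K1 read 833, 1202 and 791 CPM in untreated WT 1 to 3, 987, 1098 and 1032 CPM in untreated TG, 1451 and 1261 CPM in DSS-treated WT, and 966 and 1165 CPM in DSS-treated TG. Both DSS-treated WT libraries were above every untreated WT library, whereas the TG libraries overlapped. The log2 fold change with DSS was 0.53 ± 0.18 (SE) in WT (edgeR adjusted p = 0.0667) and 0.04 ± 0.18 in TG (0.943). H2-K1 passed in WT without untreated WT 2 (edgeR adjusted p = 0.0176) or untreated TG 1 (0.0496), and its log2 fold change in TG ranged from -0.11 to 0.17 as single libraries were left out and was -0.026 with total-count scaling.

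H2-D1 read 872, 1200 and 812 CPM in untreated WT, 1133, 1114 and 1150 CPM in untreated TG, 1631 and 1451 CPM in DSS-treated WT, and 1241 and 1495 CPM in DSS-treated TG. In both genotypes the DSS libraries lay above the untreated ones, by a narrow margin in TG. H2-D1 rose 1.60-fold in WT (log2 0.68 ± 0.17, edgeR adjusted p = 0.0196), a call that ended without untreated WT 1 (0.0776), untreated WT 3 (0.0741), WT DSS 1 (0.0739) or WT DSS 2 (0.0661). In TG its log2 fold change was 0.27 ± 0.17 (edgeR adjusted p = 0.414). The H2-K1 and H2-D1 transcripts were 91.1% identical over 1578 aligned bases, and 8.79% and 14.3% of their 50-base words also occur in other genes, so how reads were split between these and the other class I genes is uncertain.

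B2m, the light chain without which class I is not held at the surface, read 388, 622 and 357 CPM in untreated WT, 496, 520 and 530 CPM in untreated TG, 975 and 804 CPM in DSS-treated WT, and 571 and 582 CPM in DSS-treated TG. The DSS-treated WT libraries were the highest of the 10, and the DSS-treated TG libraries lay below untreated WT 2. B2m rose in WT (log2 0.97 ± 0.21, edgeR adjusted p = 0.0117), with an adjusted p of 0.0522 without WT DSS 1. In TG the log2 fold change was 0.16 ± 0.21 (edgeR adjusted p = 0.735).

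Tap1 and Tap2 form the transporter. Tap1 read 59.1, 114 and 51.3 CPM in untreated WT, 98.8, 82.7 and 86.2 CPM in untreated TG, 260 and 176 CPM in DSS-treated WT, and 141 and 150 CPM in DSS-treated TG. The groups did not overlap in either genotype. Tap1 rose in WT (log2 1.54 ± 0.29, edgeR adjusted p = 0.00699) and passed without each of the 10 libraries in turn (largest adjusted p 0.0377). In TG its log2 fold change was 0.71 ± 0.29 (edgeR adjusted p = 0.212, and 0.0480 without untreated WT 2).

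Tap2, its partner, read 55.0, 80.8 and 55.6 CPM in untreated WT, 61.8, 54.3 and 60.7 CPM in untreated TG, 127 and 76.5 CPM in DSS-treated WT, and 92.5 and 94.1 CPM in DSS-treated TG. The second DSS-treated WT library lay below untreated WT 2, while the TG groups did not overlap. The log2 fold changes were 0.67 ± 0.22 in WT (edgeR adjusted p = 0.0536) and 0.66 ± 0.22 in TG (0.113). Tap2 shares 12.6% of its 50-base words with other genes, mostly Gm15821. It passed in WT without untreated WT 2 (0.0325), untreated TG 1 (0.0371) or WT DSS 2 (edgeR adjusted p = 0.0256).

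Tapbp, the chaperone that bridges the heavy chain to the transporter, read 191, 215 and 176 CPM in untreated WT, 244, 183 and 202 CPM in untreated TG, 360 and 260 CPM in DSS-treated WT, and 296 and 326 CPM in DSS-treated TG. The DSS libraries were above the untreated ones in both genotypes. Tapbp rose in WT (log2 0.68 ± 0.17, edgeR adjusted p = 0.0194). That call ended without untreated WT 1 (0.0648), untreated WT 3 (0.0709) or WT DSS 1 (edgeR adjusted p = 0.128). In TG the log2 fold change was 0.57 ± 0.17 (0.0798), and it passed without untreated TG 1 (0.0208) or WT DSS 1 (edgeR adjusted p = 0.0474). Of the 50-base words of the Tapbp transcript 21.0% also occur in other genes, mostly in Gm19412, which overlaps it, so part of its count is uncertain.

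Psmb8 is the immunoproteasome's chymotrypsin-like subunit. It read 52.8, 103 and 51.1 CPM in untreated WT, 66.8, 69.6 and 57.8 CPM in untreated TG, 235 and 189 CPM in DSS-treated WT, and 146 and 162 CPM in DSS-treated TG. All 4 DSS libraries lay above all 6 untreated ones. Psmb8 rose in WT (log2 1.62 ± 0.26, edgeR adjusted p = 0.00352) and passed without each library in turn (largest adjusted p 0.0171). It rose in TG (log2 1.25 ± 0.26, edgeR adjusted p = 0.0228), but not without untreated TG 2 (0.0579), untreated TG 3 (0.0868), TG DSS 1 (0.10) or TG DSS 2 (0.180).

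Psmb9, which takes the place of Psmb6, read 28.6, 55.7 and 25.8 CPM in untreated WT, 42.1, 38.2 and 39.3 CPM in untreated TG, 109 and 75.9 CPM in DSS-treated WT, and 61.8 and 70.1 CPM in DSS-treated TG. Its DSS libraries again lay above all 6 untreated ones. Psmb9 rose in WT (log2 1.33 ± 0.28, edgeR adjusted p = 0.0116), with an adjusted p of 0.0617 without WT DSS 1. In TG the log2 fold change was 0.73 ± 0.29 (edgeR adjusted p = 0.185, and 0.0346 without untreated WT 2).

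Psmb10, which takes the place of Psmb7, read 157, 190 and 142 CPM in untreated WT, 206, 170 and 165 CPM in untreated TG, 282 and 228 CPM in DSS-treated WT, and 226 and 283 CPM in DSS-treated TG. The DSS libraries were higher in both genotypes by a smaller margin than for the other immunosubunits. Psmb10 rose 1.56-fold in WT (log2 0.64 ± 0.17, edgeR adjusted p = 0.0240). The call ended without untreated WT 1 (0.0798), untreated WT 3 (0.0855), WT DSS 1 (0.128) or WT DSS 2 (edgeR adjusted p = 0.0543). In TG the log2 fold change was 0.50 ± 0.17 (0.120, and 0.0400 without untreated TG 1, edgeR adjusted p).

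Nlrc5, the activator of class I transcription, passed in neither genotype. It read 15.3, 35.6 and 13.7 CPM in untreated WT, 14.4, 18.2 and 20.04 CPM in untreated TG, 34.3 and 22.1 CPM in DSS-treated WT, and 14.3 and 12.1 CPM in DSS-treated TG. Untreated WT 2 was above both DSS-treated WT libraries, and both DSS-treated TG libraries were below all 3 untreated TG libraries. The log2 fold change with DSS was 0.39 ± 0.37 in WT (edgeR adjusted p = 0.509, and 0.0399 without untreated WT 2) and -0.41 ± 0.38 in TG (0.613). Nlrc5 overlaps 3 other RefSeq genes (9330175E14Rik, Gm51584 and Mir7072) and B2m overlaps Patl2, and whether reads were assigned by strand is not given in the sources used here.

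**Figure D2:**
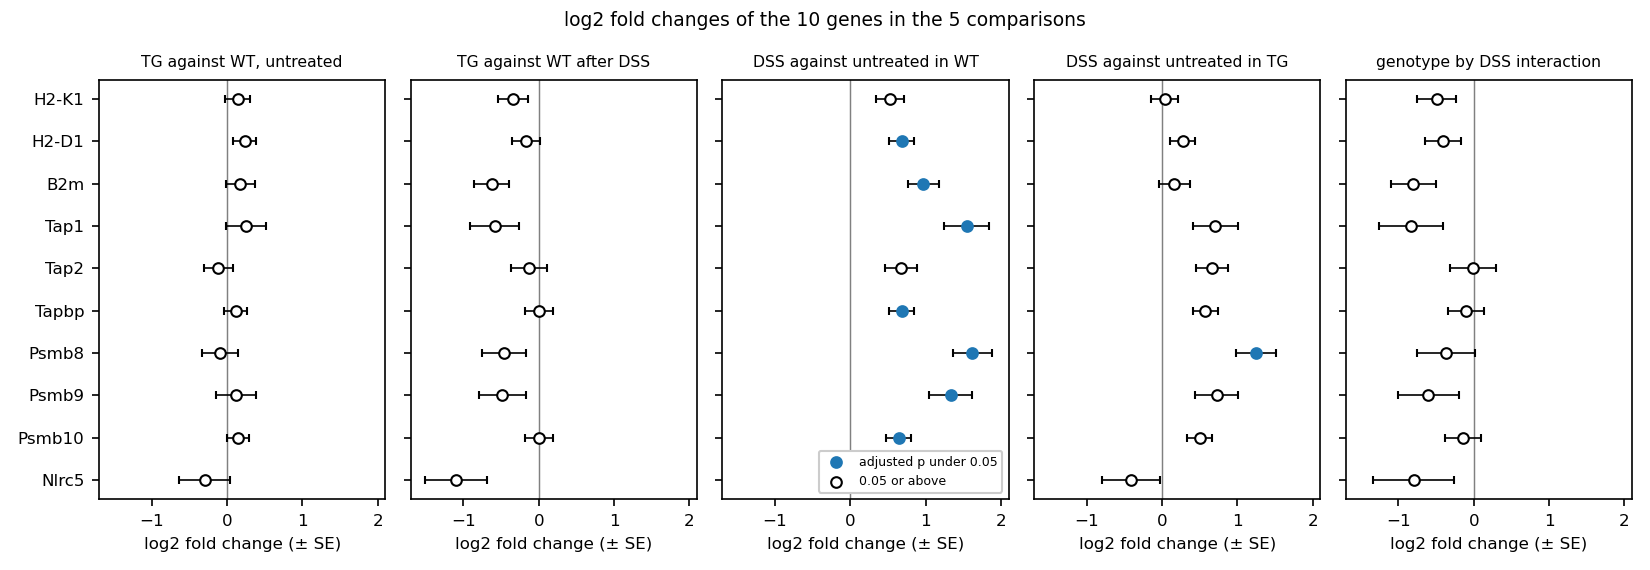
Log2 fold change of each of the 10 genes in the comparisons of the design, with bars of 1 SE from edgeR and filled points for an adjusted p under 0.05. DSS against untreated in WT has 7 filled points, DSS against untreated in TG has 1 (Psmb8), and both comparisons of TG with WT have 0.

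In untreated tissue, no member passed between TG and WT. The count was 0 of 10, beside 3.7% of all genes (2.26% higher and 1.44% lower), and 0 were under 0.05 before adjustment in edgeR or called by DESeq2. Log2 fold changes of TG against WT ran from -0.30 for Nlrc5 to 0.25 for Tap1, with a median of 0.13 against -0.02 over all genes and edgeR adjusted p of 0.393 to 0.853. All 10 overlapped between the groups, where 16.7% of all genes were higher and 15.4% lower without overlap. The summed level of the 10 genes was 3350, 3349 and 3343 CPM in untreated TG and 2652, 3819 and 2476 CPM in untreated WT, so that the TG libraries lay close together between the extremes of WT. The median was 0.32 without untreated WT 2, 0.05 without untreated WT 1, 0.01 without untreated WT 3 and 0.06 without untreated TG 1. Total-count scaling moved all genes from 318 higher and 202 lower to 235 and 382, and the members' median to 0.05.

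After DSS most members read lower in TG than in WT, without passing the test. The count was 0 of 10, beside 0.185% of all genes (0.178% higher and 0.00711% lower). Before adjustment 2 were under 0.05 in edgeR, B2m (log2 -0.63 ± 0.23) and Nlrc5 (-1.10 ± 0.41), with edgeR adjusted p of 0.339 and 0.349, and DESeq2 called 0. For 6 of the 10 (H2-K1, B2m, Tap1, Psmb8, Psmb9 and Nlrc5) both TG libraries were below both WT libraries, where 21.2% of all genes were lower and 22% higher without overlap. The median log2 fold change was -0.40 against -0.01 over all genes, and -0.22 without WT DSS 1. The other log2 fold changes without overlap were -0.35 ± 0.20 for H2-K1, -0.58 ± 0.33 for Tap1, -0.46 ± 0.29 for Psmb8 and -0.48 ± 0.31 for Psmb9. Markers of erythrocytes moved the other way: all 5 were higher in TG without overlap, with a median log2 fold change of 3.60 and summed levels of 203 and 61.7 CPM against 12.6 and 9.45 CPM in WT. Their part in the members' differences was not tested. The sign of Tapbp, at 0.00, turned with the scaling (-0.068 with total counts).

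Whether the DSS response itself differed between genotypes was tested as an interaction. The log2 difference (response in TG minus response in WT) was below 0 for all 10 genes, while 7092 of 14072 genes were above 0. It ran from -0.83 ± 0.42 for Tap1 to -0.01 for Tap2, with a median of -0.45 against 0.00 over all genes. The sign was not particular to the members. Of the related lists below, 0 of 14 loading, 0 of 14 constitutive proteasome and 0 of 8 activator genes were above 0. So were 6 of 17 nonclassical genes and 8 of 28 inducers. None of the 10 members passed, beside 0.846% of all genes (0.526% higher and 0.32% lower). B2m (-0.80 ± 0.30, edgeR adjusted p = 0.315) was the 1 gene under 0.05 before adjustment, and DESeq2 called 0. Without untreated WT 2 B2m passed (edgeR adjusted p = 0.0473), and without both untreated WT 2 and untreated TG 1 so did B2m (0.0246), Nlrc5 (0.0395) and Tap1 (edgeR adjusted p = 0.0441). Median differences were then -0.73 and -0.75. The sign of the Tap2 difference turned with the scaling: it was 0.00383 with total counts.

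The immunosubunits were set against the constitutive subunits they replace, as ratios of deposited FPKM in each library. The ratio of Psmb8 to Psmb5 was 0.464, 0.870 and 0.412 in untreated WT, 0.380, 0.446 and 0.367 in untreated TG, 1.77 and 1.202 in DSS-treated WT, and 1.09 and 0.910 in DSS-treated TG. Every DSS library was above every untreated one. The ratio of Psmb9 to Psmb6 was 0.461, 0.901 and 0.384 in untreated WT, 0.492, 0.473 and 0.504 in untreated TG, 1.44 and 0.788 in DSS-treated WT, and 0.738 and 0.664 in DSS-treated TG. It was higher with DSS in TG without overlap, but in WT the second DSS library lay below untreated WT 2. The ratio of Psmb10 to Psmb7 was already above 1 in untreated tissue, at 1.22, 1.57 and 1.02 in WT and 1.25, 1.05 and 1.09 in TG. With DSS it was 1.73 and 1.09 in WT and 1.399 and 1.53 in TG, so the WT libraries overlapped and the TG libraries did not. Group means of the log2 ratio of Psmb8 to Psmb5 were -0.86 ± 0.58 (SD, n = 3) in untreated WT, -1.34 ± 0.15 (n = 3) in untreated TG, 0.54 ± 0.39 (n = 2) in DSS-treated WT and -0.00447 ± 0.185 (n = 2) in DSS-treated TG. An exact permutation test, two-sided, set DSS against untreated for each ratio with libraries reassigned only within a genotype (100 arrangements), and was chosen after the values were seen. The mean log2 difference over the genotypes was 1.37 for Psmb8 to Psmb5 (exact p = 0.01, the smallest this design can give, and 0.03 adjusted over the 3 ratios). It was 0.75 for Psmb9 to Psmb6 (exact p = 0.05, adjusted 0.075) and 0.26 for Psmb10 to Psmb7 (exact p = 0.18, adjusted 0.18). For Psmb8 to Psmb5, every DSS library lay above every untreated one, so no other arrangement gives as large a rise. Only a fall of equal or greater size could then have lifted the exact p above 0.01. That p restates the order already seen and is no further support. Without 1 library the unadjusted exact p ranged from 0.0167 to 0.0333 for Psmb8 to Psmb5, from 0.0167 to 0.125 for Psmb9 to Psmb6 and from 0.05 to 0.675 for Psmb10 to Psmb7. Within 1 genotype the groups are too small for such a test to pass.

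**Figure D3:**
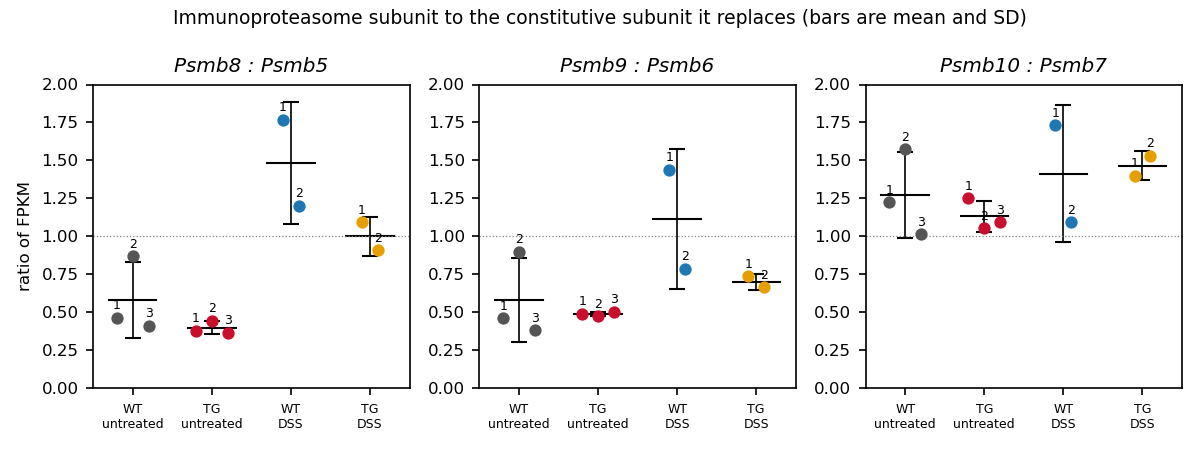
Ratio of deposited FPKM of each immunosubunit to the constitutive subunit it replaces, by library, on an axis from 0 with a dotted line at 1 and bars for the mean and SD of each group. For Psmb8 to Psmb5 the DSS libraries span 0.910 to 1.77 and the untreated libraries 0.367 to 0.870.

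Levels of the 10 genes varied together across libraries and within untreated WT, but less so within untreated TG. Over the 45 pairs of members, Pearson's r of log2 CPM across the 10 libraries had a median of 0.89 and ran from 0.15 (Nlrc5 with Tapbp) to 0.996 (Tap1 with Psmb9, neighbours whose starts face the same stretch, with 12.5% of the 50-base words of Psmb9 also in Tap1). With each group's mean removed the median was still 0.845 and the range 0.417 to 0.992. These libraries share depth, tissue composition and treatment, so the values are descriptions. Nlrc5 was the least like the others, at 0.18 with Psmb10, whereas Tapbp and Psmb10 had 0.971 with each other. Untreated WT 2 was above its group mean for 10 of 10 members, by a median of 0.44 on the log2 scale, and untreated WT 1 and 3 for 0 of 10. DSS-treated WT 1 was likewise above its group mean for 10 of 10, and DSS-treated TG 2 for 9 of 10. In a group of 2 libraries the deviations mirror each other. Untreated TG 1, 2 and 3 were above their group mean for 7, 4 and 4 of 10. The highest untreated WT library exceeded the lowest by 1.22-fold for Tapbp, 2.23-fold for Tap1 and 2.60-fold for Nlrc5.

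Leukocyte RNA was highest where the members were highest within untreated WT, but not within untreated TG or across treatments. The 11 T cell markers listed summed to 214, 409 and 202 CPM in untreated WT and 79.2, 194 and 271 CPM in untreated TG. After DSS they summed to 101 and 79.0 CPM in WT and 76.7 and 84.4 CPM in TG. Untreated WT 2 was thus the highest in both T cell markers and class I genes among untreated WT. In untreated TG the class I sums were close together (3350, 3349 and 3343 CPM) while the T cell markers differed widely. The DSS-treated WT libraries had the highest class I sums (5464 and 4544 CPM) with low T cell markers. The log2 fold changes with DSS of all 11 T cell markers tested were below 0 in both genotypes, with medians of -1.65 in WT and -1.17 in TG, beside 0.00 and 0.01 over all genes. In the interaction 0 of the 11 passed in edgeR, 0 were under 0.05 before adjustment and DESeq2 called 0. Neutrophil markers summed to 29.3 to 78.9 CPM untreated and 144 to 264 CPM after DSS. Most of that sum was Ly6g alone, at 25.2 to 83.5 FPKM untreated and 111 to 243 FPKM after DSS, while S100a8 and S100a9 ranged from 0 to 0.48 FPKM untreated and from 7.39 to 23.04 FPKM after DSS. Macrophage and dendritic cell markers summed to 25.2 to 45.9 CPM in untreated WT and 28.4 to 50.1 CPM in DSS-treated WT, which overlap. In TG they summed to 15.3 to 28.1 CPM untreated and 47.0 to 48.8 CPM after DSS, without overlap. Their median log2 fold change with DSS was 0.67 in WT and 0.89 in TG. B and plasma cell markers set untreated TG 3 apart, with 37.9 CPM against 1.85 to 13.1 CPM in the other untreated libraries. Fibroblast markers summed to 70.9, 118 and 82.9 CPM in untreated WT, 59.7, 157 and 165 CPM in untreated TG, and 43.3 to 48.9 CPM after DSS. These sums mix directions. Between untreated genotypes the markers' log2 fold changes ran from -1.29 to 2.07, with 6 of 8 above 0. Of the 8, edgeR called 3 higher and 0 lower in TG, beside 2.26% and 1.44% of all genes. Erythrocyte markers, which report blood in the tissue, summed to 310, 245 and 174 CPM in untreated WT and 542, 382 and 626 CPM in untreated TG. After DSS they summed to 12.6 and 9.45 CPM in WT and 203 and 61.7 CPM in TG, so that the groups did not overlap in any comparison. The part of any of these cells in the class I differences was not tested.

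**Figure D4:**
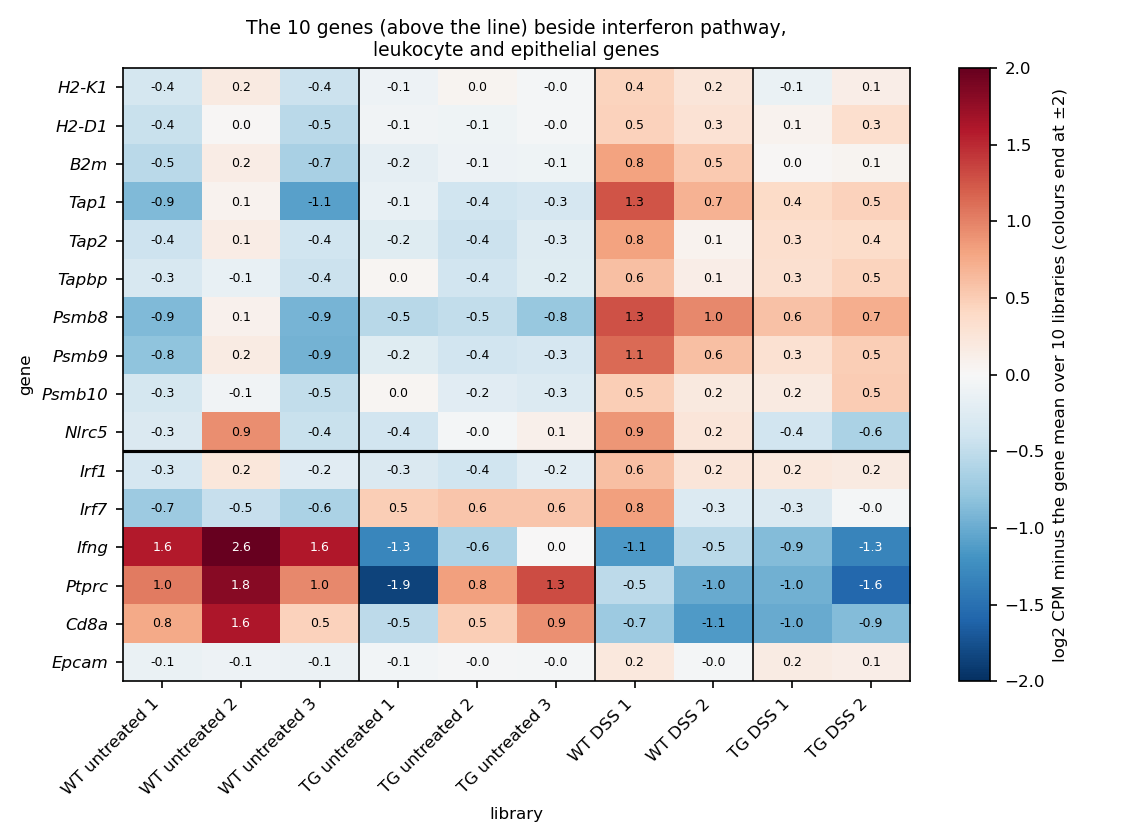
Heat map of log2 CPM minus each gene's mean over the 10 libraries, with libraries in columns, the 10 members above the line, and Irf1, Irf7, Ifng, Ptprc, Cd8a and Epcam below it. Untreated WT 2 is high in members and in the leukocyte genes Ptprc and Cd8a, and the DSS-treated WT libraries are high in members and low in those genes.

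Among 12726 genes with a mean of at least 1 CPM, those most like the members' mean over the 10 libraries included Rbm43 (r = 0.965), Xdh (0.958), Nub1 (0.953), Tgtp1 (0.952) and Igtp (0.946). Tgtp1 and Igtp are interferon-inducible GTPases. Most like Nlrc5 were H2-Q4 (r = 0.906), a nonclassical class I gene, Zfp82 (0.891) and Nr4a3 (0.886). Ifng, the cytokine best known for inducing class I, did not share the members' pattern across treatments. It read 3.52, 7.14 and 3.57 CPM in untreated WT and 0.477, 0.768 and 1.18 CPM in untreated TG. With DSS it read 0.532 and 0.810 CPM in WT and 0.645 and 0.468 CPM in TG. All 3 untreated WT libraries were above all 7 others in Ifng. The highest of them was also the members' highest untreated WT library. Irf1 read 79.8, 118 and 87.2 FPKM in untreated WT and 76.5, 75.2 and 81.5 FPKM in untreated TG. With DSS it read 144 and 118 FPKM in WT and 108 and 103 FPKM in TG. Of the 28 interferon, NF-kappa B and RFX genes described below, 7 rose and 2 fell with DSS in WT. Their part in the class I levels was not tested.

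The wider pathway was read from 5 lists, whose counts with DSS in WT stand beside 10.2% of all genes higher and 9.62% lower. With DSS in WT, 9 of 14 genes of peptide loading and trimming rose and 0 fell, with a median log2 fold change of 0.62. Calr, a chaperone of the loading complex (log2 1.46 ± 0.14, edgeR adjusted p = 0.000192), the peptidase Lap3 (1.06 ± 0.12, 0.000477) and the translocon subunit Sec61g (1.06 ± 0.15, 0.00159) passed without each library in turn. The count was 6 without any 1 untreated WT library and 5 without WT DSS 2. Of 14 constitutive core subunits 10 rose and 0 fell (median 0.54), led by Psmb2 (log2 0.74, edgeR adjusted p = 0.00785), but 0 passed without WT DSS 2, and 4, 5 and 6 without untreated WT 1, 2 and 3. Of 8 activator and assembly genes 5 rose (median 0.49), with the PA28 subunits Psme1 (log2 0.97 ± 0.15, edgeR adjusted p = 0.00283) and Psme2 (0.76 ± 0.11, 0.00221) passing without each library in turn. Their count was 2 without untreated WT 1 or WT DSS 2 and 3 without untreated WT 2 or 3. Of 17 nonclassical class I genes tested 1 rose and 2 fell, with a median of 0.07, so their counts lay near the shares over all genes. H2-T22 rose (log2 0.56, edgeR adjusted p = 0.0358), and Mr1, which presents vitamin B metabolites (-2.16, 0.0423), and H2-T3 (-0.63, 0.0497) fell. These 3 calls held in 4, 3 and 2 of the 10 fits without a library, and without both untreated WT 2 and untreated TG 1 the list had 3 that rose and 0 that fell.

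Of 28 genes of the interferon, NF-kappa B and RFX routes, 7 rose and 2 fell with DSS in WT, with a median of 0.08. Socs3, a feedback inhibitor of cytokine signalling (log2 2.81 ± 0.34, edgeR adjusted p = 0.000704) and the transcription factor Irf8 (0.94 ± 0.13, 0.00162) passed without each library in turn. Ifng fell by 2.80 on the log2 scale (edgeR adjusted p = 0.00435). The number that rose was 3 without WT DSS 1 and 4 without untreated WT 1 or 3. With DSS in TG, where 3.33% of all genes were higher and 2.15% lower, 1 of 17 nonclassical genes rose (Fcgrt, the neonatal Fc receptor, log2 1.18 ± 0.16, edgeR adjusted p = 0.00298, passing without each library in turn), as did 1 of 14 loading genes (Calr, 0.67, 0.0223), 0 of 14 constitutive subunits, 1 of 8 activator genes (Psme1, 0.73, 0.0212) and 2 of 28 inducers, Socs3 (1.97 ± 0.34, 0.00834) and Irf8 (0.70 ± 0.13, 0.0133). Without TG DSS 2 the adjusted p was 0.263 for Calr, 0.202 for Psme1, 0.102 for Socs3 and 0.125 for Irf8 (edgeR). The calls also ended without untreated TG 2 (0.0584 for Calr, 0.0562 for Psme1), untreated TG 3 (0.0817 and 0.0795) or TG DSS 1 (0.0856 for Psme1, 0.0877 for Irf8).

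In untreated tissue 6 of 14 genes of the loading and trimming list were higher in TG than in WT and 0 lower (median 0.33), beside 2.26% and 1.44% of all genes. Among them were Calr (log2 0.73 ± 0.13, edgeR adjusted p = 0.0170) and the translocon subunits Sec61b (0.67 ± 0.11, 0.0152) and Sec61a1 (0.67 ± 0.12, 0.0173). The list is not confined to class I loading, so the count does not measure that step alone. That count was 0 without any 1 untreated WT library, 2 without untreated TG 2, 3 without untreated TG 3, 3 without both untreated WT 2 and untreated TG 1, and 4 without TG DSS 1 or 2. Of the inducers, Irf7 rose (log2 1.14 ± 0.22, edgeR adjusted p = 0.0250, passing in 5 of 10 fits without a library), and Ifng (-2.55 ± 0.40, 0.0131) and Irf2 (-0.62, 0.0360) fell. Ifng did not pass without untreated TG 2 (edgeR adjusted p = 0.0550), and Irf2 passed in 3 of 10 such fits. Irf7, the regulator of type I interferon genes, read 124, 150 and 133 CPM in untreated WT, 291, 305 and 304 CPM in untreated TG, 364 and 170 CPM in DSS-treated WT, and 169 and 200 CPM in DSS-treated TG. All 3 untreated TG libraries were above all 3 untreated WT libraries. None of the nonclassical, constitutive or activator genes passed between untreated genotypes in edgeR (1, 7 and 3 under 0.05 before adjustment, and 0, 1 and 0 called by DESeq2). Between genotypes after DSS, 0 of the 81 tested genes of the 5 lists passed in edgeR (6 before adjustment, 0 by DESeq2). In the interaction 0 passed (17 before adjustment, 6 by DESeq2), while 6 loading genes passed as lower without untreated TG 1 and 2 without both untreated WT 2 and untreated TG 1.

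**Figure D5:**
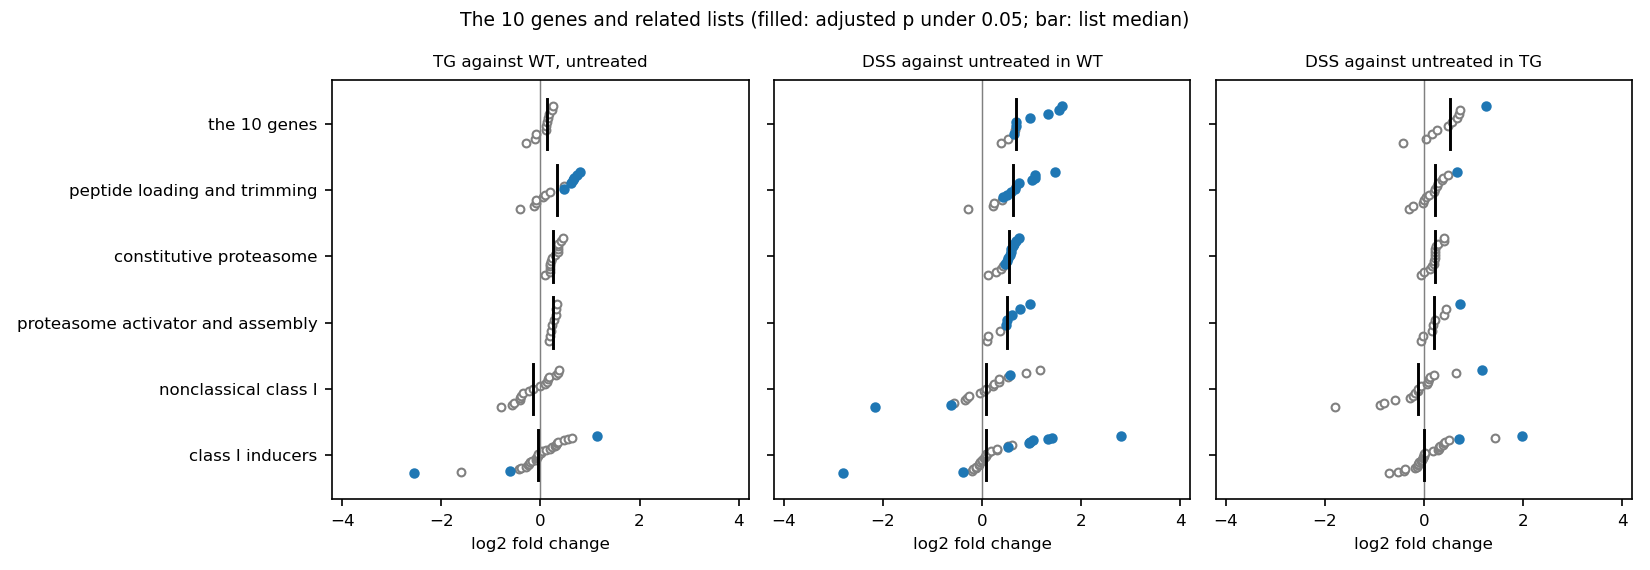
Log2 fold change of every tested gene of the members and of the 5 pathway lists, 1 panel each for TG against WT untreated, DSS in WT and DSS in TG, filled where the edgeR adjusted p was under 0.05, with a bar at each list's median. With DSS in WT the medians are 0.68 for the members, 0.62 for loading, 0.54 for constitutive subunits, 0.49 for activators, 0.08 for inducers and 0.07 for nonclassical genes.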

How the data were processed

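Poly-A RNA libraries of mouse intestinal tissue were grouped by the labels into untreated WT (3), untreated TG (3), DSS-treated WT (2) and DSS-treated TG (2). Each deposited table covers 1 library and lists, per the file headers, the expected count, the gene length and FPKM of every gene. Per the submitters' processing notes the genome build was mm10 and the tools were RSEM 1.2.12, Bowtie2 2.2.5 and HISAT2 2.0.4, with no role stated. The deposited FPKM values are fragments scaled to length and library size; FPKM times length over count was within 5% of the library's median for 96.9 to 97.1% of genes. The deposited gene length served only that check and a ratio alternative and is in bases. Genes missing from a table were set to 0.

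Expected counts were rounded, filtered with filterByExpr (count minimum 10, total minimum 15), scaled by TMM and fitted in edgeR 4.0.16 (R 4.3.3) with 1 mean per group over all 10 libraries (6 residual degrees of freedom), with Benjamini-Hochberg adjustment over 14072 genes and a threshold of 0.05. The 5 contrasts share libraries, so their results are not independent. Log2 CPM used a prior count of 2. Same-group libraries were compared pair by pair, and none was a duplicate (chi-square per gene 9.99 to 65.1 over 8 pairs). The largest values were for untreated TG 1 with TG 2 (65.1) and with TG 3 (44.6). Those for TG 2 with TG 3 and for the DSS-treated WT pair were 19.3 and 42.3. Untreated TG 1 also listed the fewest genes (16391), so it stood apart in more than leukocyte RNA. The cause, which may be technical, was not tested. Correlations are Pearson's r over libraries, given without p. The fit was tested on simulated data.

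All 10 members are named in every contrast. From each pathway list up to 3 passing genes with the smallest adjusted p are named, with the genes most like the members' mean (6) and Nlrc5 (3); 1 gene under these rules is not reported here. The members, lists and rules were chosen with earlier results of these data known. Leaving out both libraries that stand apart in pan-leukocyte markers, untreated WT 2 and untreated TG 1, was added after seeing the data. So was the exact permutation test of the subunit ratios, for which only a description had been planned. Ifng with DSS, the Irf1 levels, and Irf1, Ptprc, Cd8a and Epcam in the heat map lie outside that rule and were chosen after their values were seen. Alternatives were DESeq2 1.42.0, its size factors or total counts as scaling, a block for the replicate number, other low-count filters, leaving out each library in turn, a fit restricted to the compared groups, and limma 3.58.1 on log2(FPKM + 1), unfiltered or where 2 libraries reached FPKM 1, and on log2(FPKM + 0.1) with that filter. Promoter windows are RefSeq entries of GRCm38.p6, and shared 50-base words were counted in GENCODE vM21 transcripts.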

Additional observations from a re-analysis of the deposited data

How the results depend on the processing

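With DSS in WT 7 members rose. With the replicate number as a block 4 did, and without 1 library 2 to 10. DESeq2 called 9. With DSS in TG 1 member rose, against 2 with DESeq2 and 2 with only the groups compared, 0 with the replicate block, 0 with limma on log2(FPKM + 1) without a filter, 0 to 3 without 1 library and 5 with both libraries that stand apart left out. In the interaction 0 passed, 0 to 1 without 1 library and 3 without both; leaving out both gave 10 for DSS in WT. The replicate numbers did not pair the libraries: same-numbered untreated libraries had correlations of 0.083, -0.013 and -0.186 of their deviations and DSS libraries 0.206. Under the block 0 members passed in the other 3 comparisons. Some differences near 0 changed sign. Tapbp, TG against WT after DSS, was 0.00, but -0.00327 with DESeq2 and its size factors, -0.068 with total counts, -0.011 with only the groups compared, -0.057 with limma, and -0.21 to 0.26 without 1 library. H2-K1 with DSS in TG was 0.04, but -0.026 with total counts, -0.030 with the block, -0.028 with limma, -0.00141 without both libraries, and -0.11 to 0.17 without 1. The Tap2 interaction was -0.01, but 0.00383 with total counts, 0.00210 without the low-count filter, 0.00110 with the block, 0.014 to 0.016 with limma and -0.33 to 0.40 without 1 library. Between untreated genotypes Tap2 was 0.055, Psmb8 0.29 and Nlrc5 0.40 without both libraries, and without 1 library Tap2 ran from -0.23 to 0.071, Psmb8 from -0.29 to 0.30, Nlrc5 from -0.56 to 0.25, Psmb9 from -0.10 to 0.53 and Tapbp from -0.011 to 0.18. After DSS, TG against WT, Tap2 ran from -0.44 to 0.29 and Psmb10 from -0.17 to 0.16, and in the interaction Tapbp from -0.33 to 0.14 and Psmb10 from -0.32 to 0.012. The cause of these changes was not tested. The members' median between untreated genotypes was 0.39 without both libraries. Subunit ratios moved by less than the SD of their group. In groups of 2 or 3, leaving 1 library out cannot move a mean further than that. Expected counts per kilobase, the other alternative, restate FPKM in a ratio. Neither therefore tests how stable the ratios are. Without 1 DSS library its partner is assumed to vary like the other groups. The number of libraries per group, 2 or 3, limits these comparisons.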
